A study of Mus musculus with 6 samples.

Results

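The core circadian clock genes described here are 10 genes taken by name: Arntl (now also called Bmal1), Clock, Per1, Per2, Per3, Cry1, Cry2, Nr1d1, Dbp and Ciart. All 10 were found among the 57180 gene IDs of the deposited tables, and all 10 passed the filter on low counts that left 18092 genes for testing. The kidneys came from 6 male wild-type C57BL/6J mice, which were 7 weeks old when obtained. Nanoplastic mice (3 animals) received cationic polystyrene nanoparticles by mouth at 200 mg/kg once daily for 6 weeks, and vehicle mice (3 animals) received deionized water, the dose of 0 mg/kg. Each kidney gave 1 library of total RNA, with 19408534 to 23793640 expected counts in nanoplastic and 23420454 to 26292760 in vehicle libraries. The mice lived under a light and dark cycle. No source used here gives the hour at which a kidney was taken, so its part in differences between mice was not tested.

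The mammalian clock is a feedback loop of transcription. The proteins of Arntl and Clock pair up and switch on genes that carry an E-box in their regulatory DNA, among them the Per and Cry genes, Nr1d1, Dbp and Ciart. PER and CRY proteins then block this pair, and the protein of Nr1d1, REV-ERB alpha, shuts off genes with a ROR element (RORE), chief among them Arntl. In mouse peripheral tissues the Arntl transcript therefore peaks near the start of the light phase, and Dbp, Nr1d1 and the Per genes peak later, towards dusk. In the kidney the clock is known for daily rhythms of salt and water handling. The members were grouped accordingly into an E-box arm of 7 genes (Per1, Per2, Per3, Cry2, Nr1d1, Dbp and Ciart, taken as the evening genes) and a RORE arm of 3 genes (Arntl, Clock and Cry1, taken as the morning genes). The phase of no member was measured here, and Cry1 may not share the phase of Arntl. Cry1 is known to respond to both elements, and the rhythm of Clock and of Cry2 is known to be shallow.

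Promoter windows were searched for these elements. RefSeq start sites on GRCm38.p6, which is not the build GRCm39 of the deposited tables, gave windows of 250 bases before to 50 bases after a start for 9 of the 10 members, 13 windows in all. Both strands were searched for the E-box CACGTG, the D-box TTATGTAA, at which DBP binds, and the RORE core TAGGTCA or TGGGTCA, motifs that do not overlap in these windows. The E-box occurs in 7.15%, the D-box in 0.938% and the RORE core in 6.45% of all 32851 windows in the table. An E-box stood in a window of 2 of the 6 E-box members that have one (Ciart and Per1) and also of Cry1 in the RORE arm, a D-box in 1 member (Per3) and a RORE core in 1 (Arntl). The windows of Clock, Cry2, Nr1d1 and Dbp held none of the motifs, so the arms follow background knowledge and not these windows. A match describes the letters and does not show that a factor binds. The windows below are shown because Ciart had the largest fold change of the E-box arm, Arntl that of the RORE arm, and Per3 carries the D-boxes, with the matches in capitals. Ciart (chr3:95882179-95882478, minus strand) has E-boxes that begin at bases -116, -58 and -44 from the start, Per3 (chr4:151044616-151044915, minus strand) has D-boxes that begin at -205 and -158, and Arntl at the further downstream of its 2 starts (chr7:113207261-113207560, plus strand) has the RORE core at 31.
Ciart: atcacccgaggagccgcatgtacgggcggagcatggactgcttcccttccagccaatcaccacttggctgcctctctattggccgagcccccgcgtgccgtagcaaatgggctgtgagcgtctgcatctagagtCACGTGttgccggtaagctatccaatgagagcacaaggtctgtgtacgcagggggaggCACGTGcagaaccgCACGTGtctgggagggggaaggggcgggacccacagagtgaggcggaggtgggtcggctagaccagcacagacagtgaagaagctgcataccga
Per3: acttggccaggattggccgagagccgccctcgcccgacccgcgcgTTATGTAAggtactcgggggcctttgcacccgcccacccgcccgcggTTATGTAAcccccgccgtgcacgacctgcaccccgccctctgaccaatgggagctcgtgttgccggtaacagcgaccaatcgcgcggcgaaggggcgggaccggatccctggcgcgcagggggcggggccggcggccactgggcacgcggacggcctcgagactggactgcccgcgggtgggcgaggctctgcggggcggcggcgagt
Arntl: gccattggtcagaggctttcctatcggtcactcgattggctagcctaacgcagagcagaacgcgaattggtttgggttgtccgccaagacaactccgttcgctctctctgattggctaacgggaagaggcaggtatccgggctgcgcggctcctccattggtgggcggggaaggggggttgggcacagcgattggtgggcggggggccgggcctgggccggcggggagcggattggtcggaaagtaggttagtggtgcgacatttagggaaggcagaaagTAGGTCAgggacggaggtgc

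Per transcript length, Dbp was the most abundant member. In deposited TPM (a level scaled by transcript length and library), Dbp averaged 13.6 ± 6.59 TPM over the 6 libraries (SD, n = 6) and Clock 8.4 ± 0.359 TPM (SD, n = 6). Per3 (3.67 TPM), Nr1d1 (3.63), Arntl (2.76), Per1 (2.59), Cry2 (1.68), Per2 (1.43), Ciart (0.705) and Cry1 (0.545) followed as means of 6 libraries. Neighbours in this order overlapped in their ranges over libraries, apart from Clock and Per3, whose ranges of 7.89 to 9.01 and 1.83 to 5.5 TPM stood apart. The levels of Clock were the most even of the 10 and those of Dbp spread from 8.38 to 24.4 TPM in nanoplastic and from 5.76 to 14.8 TPM in vehicle libraries. All values below are CPM, counts scaled by library size and TMM, unless TPM is named.

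No clock gene passed the test over the genes kept by the filter. With edgeR's quasi-likelihood test 0 of 18092 genes, 0%, had a Benjamini-Hochberg adjusted p under 0.05, so 0 of the 10 members did. Without adjustment 1301 genes, or 7.19%, had a p under 0.05, and so did 2 of the 10 members, Ciart and Cry2, both with higher means in nanoplastic, the direction of 3.69% of all genes at that level. After adjustment limma-voom called 0 genes (1301 unadjusted), and DESeq2 called 55 of the 12496 genes to which it gave an adjusted p, or 0.44%. It gave no adjusted p to Ciart and Cry1 and called 0 of the other 8 members. With no filter on low counts, edgeR called 207 of at most 31462 genes with a count, and 1 member, Ciart. All nanoplastic libraries lay on one side of all vehicle libraries in 2 members, Ciart (above, as in 6.54% of all genes) and Cry1 (below, as in 6.32%), where either direction held for 12.9% of all genes. In log2 fold change of nanoplastic over vehicle, 6 of 7 E-box members were positive and 3 of 3 RORE members negative, with medians of 0.38 and -0.20, against a median of 0.007 and 51.9% positive over all genes tested. The negative E-box member, Nr1d1, was at 0.01 in TPM, and Per1 turned negative without nanoplastic 2 (-0.02) or vehicle 1 (-0.08).

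**Figure D1:**
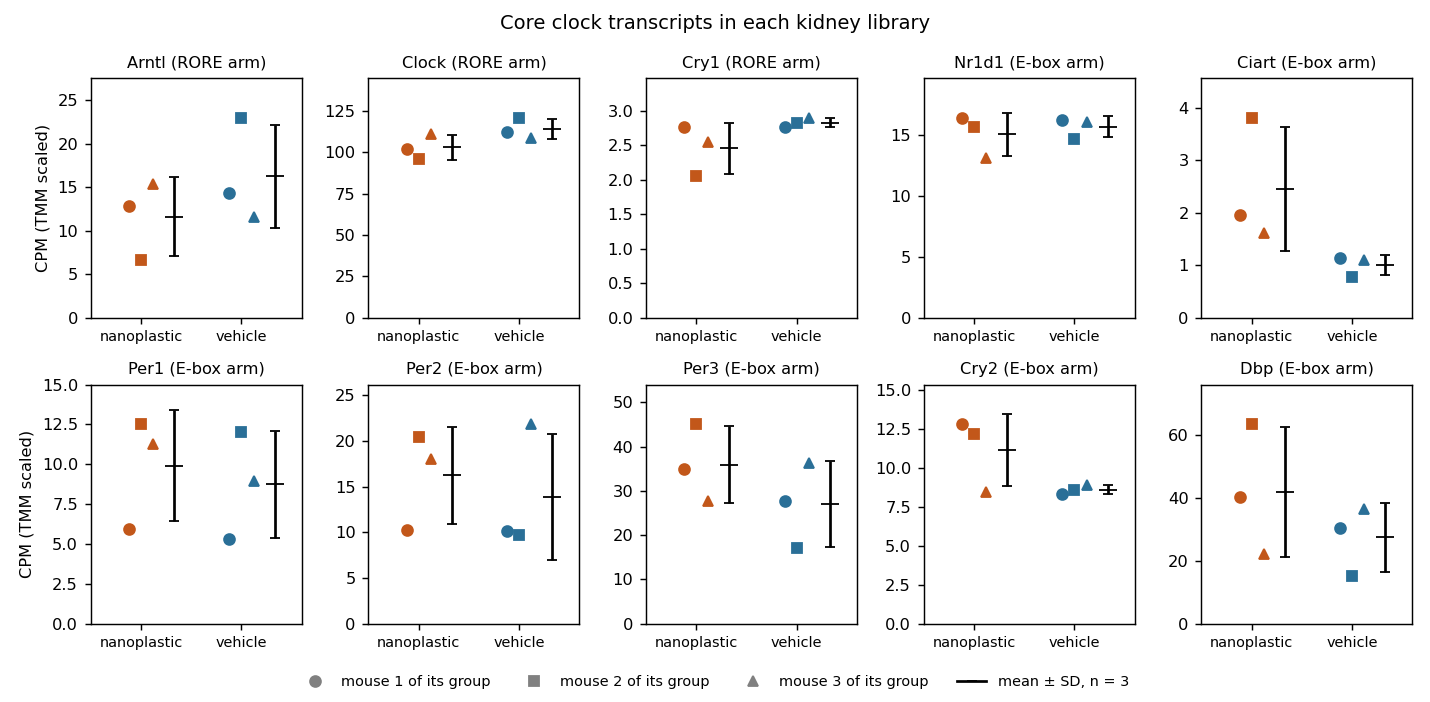
CPM (vertical axis, from 0, a scale of its own per gene) of each member in the 3 nanoplastic (left) and 3 vehicle kidneys (right), marked by mouse number, with mean ± SD (n = 3). Ciart is higher in all 3 nanoplastic libraries, while in Dbp, Per3 and Arntl the groups overlap and mouse 2 of each group is at an extreme.

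Ciart, which encodes CHRONO, a repressor of the ARNTL and CLOCK pair, differed most. It measured 1.95, 3.8 and 1.61 CPM in nanoplastic mice 1, 2 and 3, against 1.13, 0.78 and 1.1 CPM in vehicle mice 1, 2 and 3. All 3 nanoplastic libraries lay above all 3 vehicle libraries. The log2 fold change was 1.29 (SE 0.35, 95% interval 0.52 to 2.06), which is 2.44-fold, with an edgeR adjusted p of 0.524 and an unadjusted p that ranked 126 of the 18092. With no filter on low counts the edgeR adjusted p was 0.018, and over the alternatives tried it ran from 0.018 to 0.999. These are low counts, 18 to 91 per library. Leaving out nanoplastic 2 lowered the log2 fold change to 0.82, the lowest of the 6 fits that each leave out a library, and on the log2(TPM + 1) scale the difference was 0.54. Ciart overlaps C920021L13Rik on the other strand, which had a log2 fold change of 0.45 (SE 0.21). No source used here says whether counting used strand, so reads from the shared stretch cannot be told apart.

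Dbp encodes an activator that binds D-boxes and carries the rhythm to output genes. It measured 40.4, 63.4 and 22.1 CPM in nanoplastic mice, against 30.6, 15.3 and 36.4 CPM in vehicle mice. Nanoplastic 2 was the highest and vehicle 2 the lowest library, and the groups overlapped. The log2 fold change of 0.62 (SE 0.35, edgeR adjusted p = 0.734) moved to 0.20 without nanoplastic 2, to 0.33 without vehicle 2 and to 0.92 without nanoplastic 3. For Sphk2, which overlaps Dbp on the opposite strand, the log2 fold change was 0.21 (SE 0.11).

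The period genes encode repressors of the loop. Per3 measured 34.9, 45 and 27.7 CPM in nanoplastic mice, against 27.8, 17 and 36.4 CPM in vehicle mice, with a log2 fold change of 0.41 (SE 0.24). Its libraries followed the order of Dbp at the extremes, with nanoplastic 2 the highest and vehicle 2 the lowest. Its log2 fold change was 0.17 without vehicle 2, 0.21 without nanoplastic 2 and 0.68 without vehicle 3. Per2 measured 10.3, 20.4 and 18 CPM in nanoplastic mice, against 10.1, 9.71 and 21.8 CPM in vehicle mice, with a log2 fold change of 0.23 (SE 0.31). Here vehicle 3 was the highest library and the low libraries were nanoplastic 1, vehicle 1 and vehicle 2. Its log2 fold change was 0.02 without nanoplastic 2 and 0.71 without vehicle 3. Per1, which also responds acutely to hormones and cell signals, measured 5.97, 12.5 and 11.3 CPM in nanoplastic mice, against 5.3, 12 and 8.96 CPM in vehicle mice. Mouse 1 was the lowest and mouse 2 the highest in both groups, and the log2 fold change was 0.18 (SE 0.30). Vehicle 2 was thus low in Per2, Per3 and Dbp and high in Per1. All 3 adjusted p values lay between 0.740 and 0.912 in edgeR.

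For Per1 the difference between groups was larger in TPM than in counts. The deposited tables give each gene a mean transcript length that depends on how reads were assigned to its isoforms. For Per1 this length was 2146.0, 2060.1 and 1485.0 bases in nanoplastic mice, against 3944.1, 2198.2 and 2501.9 bases in vehicle mice, so the groups did not overlap, as in 10.1% of the 13346 genes whose length varied between libraries. In TPM, which divides by this length, Per1 averaged 3.26 ± 1.37 in nanoplastic and 1.91 ± 1.11 in vehicle mice (SD, n = 3 each), and limma on log2(TPM + 0.1) gave a difference of 0.83 where the counts gave 0.18. None of the other 9 members had lengths that separated the groups.

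Cry2, a repressor of the same complex as the PER proteins, measured 12.8, 12.2 and 8.48 CPM in nanoplastic mice, against 8.34, 8.58 and 8.92 CPM in vehicle mice. The vehicle libraries lay close together, nanoplastic 1 and 2 stood above them and nanoplastic 3 within them. The log2 fold change was 0.38 (SE 0.15, 95% interval 0.05 to 0.71, edgeR adjusted p = 0.636). Nr1d1, the repressor of Arntl, measured 16.4, 15.7 and 13.1 CPM in nanoplastic mice, against 16.3, 14.7 and 16.1 CPM in vehicle mice. The groups overlapped, and the 95% interval of the log2 fold change, -0.28 to 0.17, lay within a 2-fold change in either direction. Its highest library was 1.25 times its lowest, where the same ratio was 4.14 for Dbp and 4.87 for Ciart. Nr1d1 overlaps Thra, a thyroid hormone receptor gene on the other strand, which measured 35.8 to 40.5 CPM in nanoplastic and 32.3 to 38.1 CPM in vehicle libraries, and reads from the shared stretch cannot be told apart.

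In the RORE arm Arntl ran opposite to Dbp. It measured 12.8, 6.64 and 15.4 CPM in nanoplastic mice, against 14.3, 22.9 and 11.5 CPM in vehicle mice. Nanoplastic 2, the highest in Dbp, was the lowest in Arntl, and vehicle 2, the lowest in Dbp, was the highest in Arntl. The log2 fold change of -0.49 (SE 0.29, edgeR adjusted p = 0.747) moved to -0.21 without nanoplastic 2 and to -0.17 without vehicle 2. Clock, the partner of Arntl, measured 102.0, 95.9 and 111.0 CPM in nanoplastic mice, against 112.6, 120.6 and 108.9 CPM in vehicle mice, with a log2 fold change of -0.15 (SE 0.07, edgeR adjusted p = 0.712). The same libraries were the extremes, within a narrow range of 1.26-fold. Cry1 measured 2.76, 2.05 and 2.55 CPM in nanoplastic mice, against 2.77, 2.82 and 2.89 CPM in vehicle mice. The groups did not overlap, but the highest nanoplastic and the lowest vehicle library were nearly level at these 49 to 71 counts, and the log2 fold change was -0.20 (SE 0.20, edgeR adjusted p = 0.840).

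**Figure D2:**
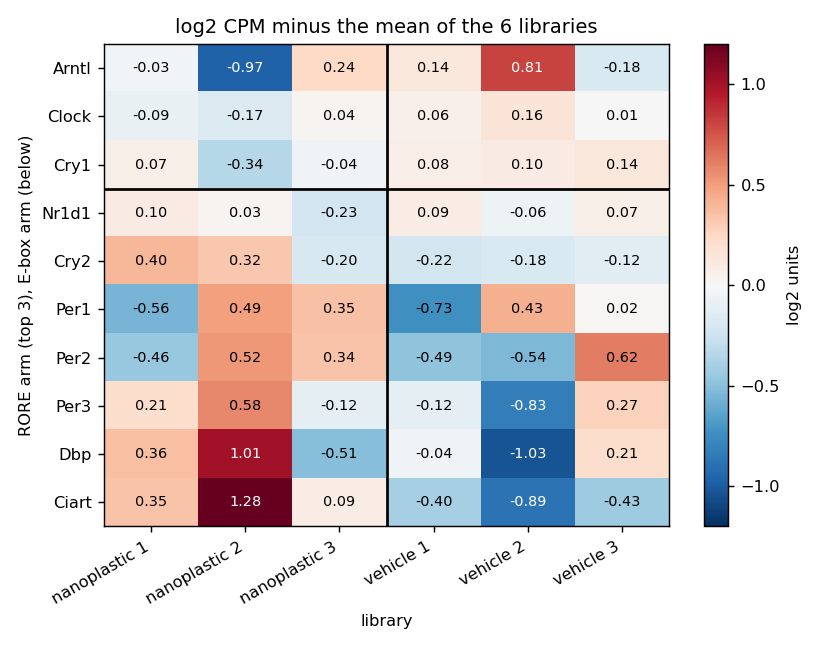
Log2 CPM of each member (rows, RORE arm above and E-box arm below the line) minus its mean over the 6 libraries (columns, nanoplastic left and vehicle right). Nanoplastic 2 has Arntl at -0.97 and Dbp at 1.01, and vehicle 2 has Arntl at 0.81 and Dbp at -1.03.

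Set side by side, the arms ran opposite in mouse 2 of each group. The ratio of Dbp to Arntl was 3.17, 9.55 and 1.44 in nanoplastic mice, against 2.13, 0.669 and 3.16 in vehicle mice. The mean log2 CPM of the E-box arm minus that of the RORE arm was -0.35, 0.67 and -0.54 in nanoplastic mice, against -0.79, -1.22 and -0.32 in vehicle mice. Nanoplastic 1 and vehicle 3 were nearly level on both measures, and the groups overlapped. The means were -0.07 ± 0.65 in nanoplastic and -0.78 ± 0.45 in vehicle mice (SD, n = 3 each), a difference of 0.70 for which no p is given because the members were chosen with earlier results known. Nanoplastic 2 was the highest library in 4 of 7 E-box members and the lowest in 3 of 3 RORE members. Vehicle 2 was the lowest in 4 of 7 E-box members and the highest in 2 of 3 RORE members. With nanoplastic 2 left out, the medians of the arms were 0.20 (E-box) and -0.10 (RORE), against 0.38 and -0.20 with all libraries.

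Libraries nanoplastic 1 and vehicle 3 held fat cell transcripts. The 8 fat cell markers, 1 of which (Car3) passed the count filter, summed to 221.0, 29.9 and 24.8 CPM in nanoplastic mice, against 36.8, 41.9 and 80.5 CPM in vehicle mice. Adipoq, the fat cell hormone adiponectin, measured 18.0 CPM in nanoplastic 1 and 5.52 CPM in vehicle 3, and at most 0.104 CPM in the other nanoplastic and 0.0434 CPM in the other vehicle libraries. Without both libraries Per2 measured 20.4 and 18 CPM in nanoplastic mice, against 10.1 and 9.71 CPM in vehicle mice, and was the only member past the edgeR threshold in that comparison of 2 against 2 (log2 fold change 0.96, SE 0.11, adjusted p = 0.0174, against 0.893 with all 6 libraries and 0.0174 to 1.0 over the alternatives tried). The omitted libraries had 10.3 CPM of Per2 in nanoplastic 1 and 21.8 CPM in vehicle 3, the reverse of that direction. Over all genes the comparison of 2 against 2 called 28 of at most 18092, 12 higher and 16 lower. Urothelial markers summed to 17.4, 2.5 and 2.86 CPM in nanoplastic mice, against 5.46, 3.82 and 1.7 CPM in vehicle mice, so nanoplastic 1 was high in these too. Erythrocyte markers summed to 625.8, 487.6 and 532.6 CPM in nanoplastic mice, against 821.7, 860.5 and 579.2 CPM in vehicle mice. All 5 of them had negative log2 fold changes at an unadjusted p under 0.05, where 3.5% of all genes did. Nanoplastic 2 was the lowest and vehicle 2 the highest library of that sum, as in Arntl. In a bulk kidney, fewer cells of a type and less RNA per cell cannot be told apart, and the part of the fat cell, urothelial and erythrocyte transcripts in the clock values was not tested. Kidney identity was plain in all 6 libraries, with Lrp2 of the proximal tubule at 7197.3 to 8683.8 CPM in nanoplastic and 8408.6 to 8747.9 CPM in vehicle libraries.

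**Figure D3:**
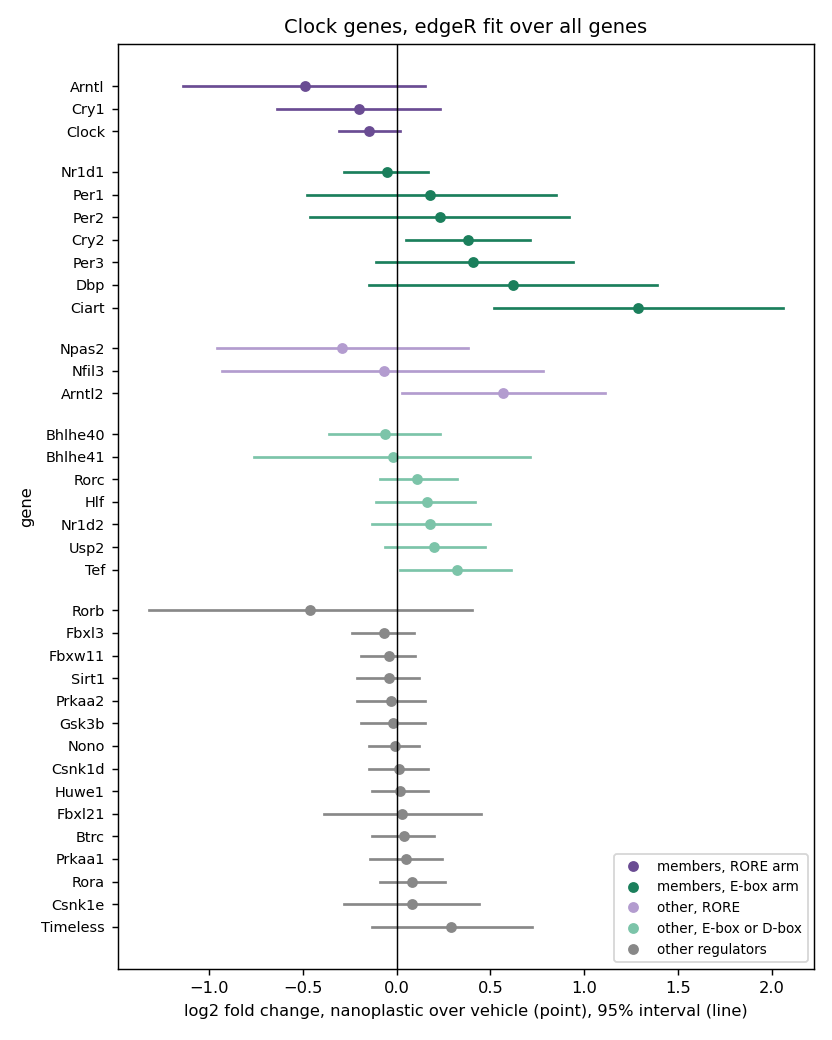
Log2 fold change of nanoplastic over vehicle (points) with 95% intervals (lines) from the edgeR fit for the 10 members and 25 other clock genes, grouped by arm. The intervals of Ciart, Cry2, Tef and Arntl2 lie above 0, none of these genes passes the adjusted threshold, and 14 of the 25 other clock genes are positive.

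Of 25 other clock genes, all above the count filter, 0 passed over all genes (0% of all genes). An unadjusted p under 0.05 was found for 2 of the 25, near the 7.19% of all genes. Tef, a relative of Dbp that binds the same D-box, measured 308.4, 360.3 and 291.2 CPM in nanoplastic mice, against 269.5, 200.7 and 301.2 CPM in vehicle mice (log2 fold change 0.32, SE 0.13, edgeR adjusted p = 0.673). Arntl2, a paralog of Arntl, measured 1.54, 1.92 and 1.51 CPM in nanoplastic mice, against 1.17, 1.17 and 1.02 CPM in vehicle mice (log2 fold change 0.57, SE 0.24, edgeR adjusted p = 0.683). Its groups did not overlap, and its direction was the reverse of Arntl. The log2 fold change was 0.16 (SE 0.12) for Hlf, another D-box factor, 0.18 (SE 0.14) for Nr1d2, which encodes REV-ERB beta, and 0.20 (SE 0.12) for Usp2, a ubiquitin protease with a clock-driven transcript. As in Dbp, nanoplastic 2 was the highest and vehicle 2 the lowest library in Tef, Hlf, Nr1d2 and Usp2. The other RORE genes, named after their values were seen, had no common order. Npas2, which can replace Clock, measured 3.17, 1.63 and 3.59 CPM in nanoplastic mice, against 2.92, 4.55 and 2.72 CPM in vehicle mice. Its lowest library was nanoplastic 2 and its highest vehicle 2, as in Arntl and unlike Nfil3 and Arntl2. Nfil3, a repressor at D-boxes, measured 2.19, 2.88 and 6.6 CPM in nanoplastic mice, against 4.64, 4.99 and 2.46 CPM in vehicle mice. The 15 other regulators include ROR receptors, kinases, ubiquitin ligases and cofactors of the loop. Their median log2 fold change was 0.01, with 8 positive and 7 negative. Timeless had the lowest p among them (log2 fold change 0.29, SE 0.19).

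Of 16 known output genes of the kidney clock 11 were positive and 5 negative, with a median log2 fold change of 0.05, and 0 had an unadjusted p under 0.05, where 7.19% of all genes did. Nampt, an enzyme of NAD synthesis under clock control, measured 171.6, 188.4 and 156.6 CPM in nanoplastic mice, against 159.6, 156.8 and 153.2 CPM in vehicle mice. Aqp2, the vasopressin-regulated water channel, and Pparg, a nuclear receptor also abundant in fat cells, were high in nanoplastic 1 alone, at 148.7 and 7.23 CPM. Their other 5 libraries held 43.3 to 61.7 CPM of Aqp2 and 1.25 to 2.34 CPM of Pparg.

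Per1 and Tsc22d3 are also targets of glucocorticoids, adrenal hormones with a daily rhythm. Of 11 glucocorticoid response genes 7 were positive and 4 negative, with a median log2 fold change of 0.14, and 1 had an unadjusted p under 0.05, near the 7.19% of all genes. That gene, Tsc22d3, which encodes the glucocorticoid-induced leucine zipper protein, measured 45.5, 49.1 and 48.4 CPM in nanoplastic mice, against 32.8, 38 and 39.8 CPM in vehicle mice (log2 fold change 0.37, SE 0.08, edgeR adjusted p = 0.353). All 3 nanoplastic libraries lay above the vehicle libraries. Zbtb16 and Klf9 are also induced by glucocorticoids, and their fold changes on the log2 scale were 0.54 (SE 0.25) for Zbtb16 and 0.14 (SE 0.08) for Klf9. Fkbp5, a further target in the list and named after its values were seen, had a log2 fold change of -0.32 (SE 0.19).

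Vehicle 2, the library with the lowest E-box and highest RORE values, also stood apart in stress genes. For the immediate early list (14 genes tested, 3 positive and 11 negative, median log2 fold change -0.36), the mean log2 CPM, set to 0 at the average of the vehicle mice, stood at -0.13, -0.50 and -0.59 in nanoplastic mice 1, 2 and 3, against -0.40, 0.76 and -0.36 in vehicle mice 1, 2 and 3. Jun, an immediate early transcription factor, measured 17.5, 17.2 and 18.4 CPM in nanoplastic mice, against 16.9, 62.1 and 26 CPM in vehicle mice. Egr2 and Ier3, of the same class, were also highest in vehicle 2, at 1.65 and 33.4 CPM. For the temperature and heat shock list of 13 genes the same value was -0.24, -0.40 and -0.17 in nanoplastic mice, against -0.36, 0.43 and -0.06 in vehicle mice. This mean mixes genes that ran in opposite directions. Rbm3 and Cirbp, the latter named after its values were seen, were lowest in vehicle 2 (53.5 and 14.5 CPM). Hsp90aa1, a heat shock chaperone, measured 328.6, 336.0 and 413.9 CPM in nanoplastic mice, against 414.3, 620.6 and 475.5 CPM in vehicle mice (log2 fold change -0.49, SE 0.14). Rbm3, an RNA-binding protein induced by cold, measured 81.4, 79.9 and 73 CPM in nanoplastic mice, against 66.2, 53.5 and 62.9 CPM in vehicle mice (log2 fold change 0.36, SE 0.09, edgeR adjusted p = 0.432). Both Hsp90aa1 and Rbm3 separated the groups, and vehicle 2 was the extreme vehicle library in each. In the list as a whole 4 of 13 genes separated the groups, 1 higher and 3 lower. That is 30.8%, where 12.9% of all genes did. In Hsp90aa1 nanoplastic 3 (413.9 CPM) and vehicle 1 (414.3 CPM) were nearly level. Hspd1, a mitochondrial chaperone whose groups did not overlap either, had a log2 fold change of -0.25 (SE 0.08). Across the list 2 of 13 genes were higher and 6 lower at an unadjusted p under 0.05, where 3.69% and 3.5% of all genes were, and the part of this library state in the clock values was not tested.

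**Figure D4:**
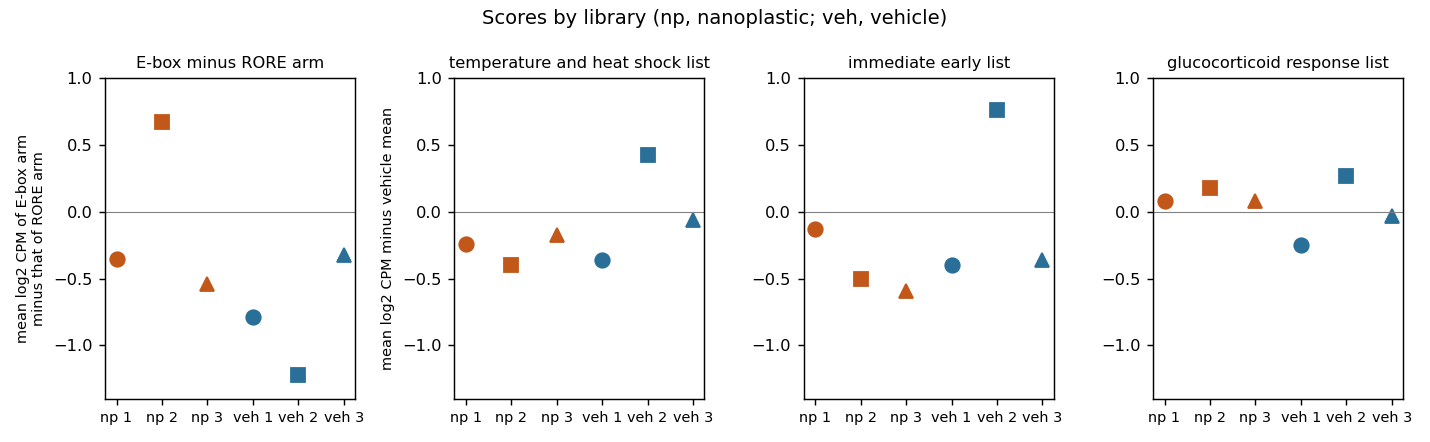
Scores in log2 units by library, nanoplastic (np) left and vehicle (veh) right. The first panel is the mean of the E-box arm minus that of the RORE arm, and the others are list means minus the vehicle mean. Vehicle 2 is lowest in the first panel (-1.22) and highest in the temperature and heat shock (0.43) and immediate early (0.76) panels.

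Over the 6 libraries and 10373 named protein-coding genes with a mean of at least 5 CPM, the profile closest to Dbp was that of Igfbp1, an insulin-like growth factor binding protein, at a root mean square difference of 0.32 log2 units where the median gene lay at 0.66. Igfbp1 measured 6.54, 11.1 and 4.94 CPM in nanoplastic mice, against 4.6, 2.38 and 3.82 CPM in vehicle mice, so that its groups did not overlap (log2 fold change 1.07, SE 0.30, edgeR adjusted p = 0.526). Ggnbp1 (0.38) and the mitochondrial gene mt-Nd6 (0.39) came next. The profile closest to Arntl was that of Nt5e, the ecto-enzyme that makes adenosine from AMP, at 0.22 where the median gene lay at 0.54. Nt5e measured 154.3, 114.7 and 183.6 CPM in nanoplastic mice, against 207.9, 288.1 and 194.3 CPM in vehicle mice (log2 fold change -0.61, SE 0.17, edgeR adjusted p = 0.526). Its groups did not overlap either, and Inava (0.22) and Col6a6 (0.28) came next. Likeness over 6 libraries is a description of these mice.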

How the data were processed

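Kidney RNA of 6 mice was sequenced on an Illumina platform, 1 library per mouse, per the labels' protocols. The tools, per the submitters' processing notes, were RSEM 1.3.3, STAR 2.7.9a, Trim Galore 0.6.6 and FastQC, and the build was GRCm39. No source used here states the annotation release or the strand setting. The authors deposited RSEM gene tables with expected counts, which are not normalized and in which reads that fit several genes are divided. The authors also deposited TPM, used here for levels between genes and in alternatives, and FPKM, not used here.

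Gene IDs were named with GENCODE vM21 (51884 of 57180 matched). Rounded expected counts of the 18092 genes that filterByExpr kept went into edgeR 4.0.16 in R 4.3.3 (TMM scaling, glmQLFit and glmQLFTest with a term for treatment alone). P-values were adjusted over these genes by Benjamini-Hochberg, with calls at 0.05. The SE was obtained from the F statistic, as the size of the log2 fold change over the square root of F, and gave the 95% intervals. Log2 CPM used a prior count of 2. Over all genes tested, the median distance from estimate to interval bound was 0.282 (log2). P-values measure the spread between these mice, and the reads carry no molecular identifiers.

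Alternatives used DESeq2 1.42.0, limma 3.58.1, other scaling, no filter, TPM with pseudocounts of 0.1 and 1, a replicate block and libraries left out. On counts simulated for this comparison over 18092 genes, with 200 changed in each of 3 runs, edgeR called 10.7% of genes changed 1.25-fold, 56.7% of those changed 1.5-fold, 75.3% at 2-fold and 92.7% at 3-fold, all drawn from genes of at least 1 CPM, with 11.7 false calls per run. The simulated counts were drawn independently for each gene, with no shared library state such as the fat cell transcripts, so these rates need not hold for these kidneys. Nor need they hold for the members, whose spread differs from that of the genes drawn. The 95% intervals of Dbp (-0.15 to 1.39) and Ciart (0.52 to 2.06) were wider than that of the median gene. Those of Clock (-0.31 to 0.02) and Nr1d1 (-0.28 to 0.17) were narrower. Members and lists were chosen with earlier results of these data known. Named genes are all members, the 6 other clock genes and the 3 genes of each further list with the lowest p, and the 3 nearest profiles to Dbp and to Arntl. Promoter windows are RefSeq's, on GRCm38.p6.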

Additional observations from a re-analysis of the deposited data

How the results depend on the processing

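The direction of Arntl, Clock, Cry1, Per2, Per3, Cry2, Dbp and Ciart held in the 15 alternatives tried. Nr1d1 turned positive in TPM (0.01 with either pseudocount) and without nanoplastic 3 (0.03), and Per1 turned negative without nanoplastic 2 (-0.02) or vehicle 1 (-0.08). With no filter on low counts edgeR called 207 of at most 31462 genes with a count, 100 higher and 107 lower. It called 1 member, Ciart (log2 fold change 1.28, adjusted p = 0.018, range over the alternatives 0.018 to 0.999). DESeq2 called 55 genes, 19 higher and 36 lower, and gave Ciart and Cry1 no adjusted p. Without nanoplastic 1 and vehicle 3 edgeR called 28 of at most 18092 genes, 12 higher and 16 lower. It called 1 member, Per2 (0.96), and the median of the E-box arm was 0.71. The causes of these shifts were not tested. Leaving out 1 library gave 0 to 5 called genes, 0 to 3 higher and 0 to 2 lower, and 0 members. The log2 fold changes then ran from -0.74 to -0.17 for Arntl, -0.20 to -0.10 for Clock, -0.30 to -0.09 for Cry1, -0.08 to 0.48 for Per1, 0.02 to 0.71 for Per2, 0.17 to 0.68 for Per3, 0.27 to 0.54 for Cry2, -0.12 to 0.03 for Nr1d1, 0.20 to 0.92 for Dbp and 0.82 to 1.51 for Ciart, with medians of 0.20 to 0.68 for the E-box arm and -0.30 to -0.10 for the RORE arm. Without vehicle 3 the E-box median was 0.68. In log2(TPM + 0.1) the E-box minus RORE value was 0.11, 1.2 and 0.09 in nanoplastic mice, against -0.51, -0.74 and 0.15 in vehicle mice. The groups share replicate numbers in the labels, but same-numbered mice did not deviate together (r = 0.0436, -0.023 and 0.103 across genes, which are not independent). With the number as a replicate block 0 genes and 0 members passed, Ciart had 1.21 and Dbp 0.57, and the medians were 0.36 and -0.21. Ciart rests on 18 to 91 counts per library and Cry1 on 49 to 71, and how far depth limits them was not tested. Ciart was 0.54 in log2(TPM + 1).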

Other observations

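Umod, the urinary protein uromodulin of the thick ascending limb, measured 3207.8, 3303.5 and 2836.2 CPM in nanoplastic mice, against 3961.3, 4341.2 and 3410.0 CPM in vehicle mice (log2 fold change -0.33, SE 0.10, edgeR adjusted p = 0.542). Its groups did not overlap, while Slc12a1, the salt cotransporter of the same segment, had a log2 fold change of 0.02 (SE 0.13). Both were named after their values were seen.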
